A study of Mus musculus with 6 samples.

Results

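Complement genes were examined in D2A1 tumor spheroids, as the 9 genes C3, C4b, Cfb, Cfd, C1s1, C1ra, Serping1, Cd55 and Cd46 of the 54146 genes in the deposited table, picked by gene name. D2A1 is a mouse mammary tumor cell line, used here as 1 unmodified line grown in 3D in Matrigel with DMEM and 10% FBS. The spheroids received either recombinant SLURP1 (rSLURP1), a secreted protein of the Ly6/uPAR family, or recombinant GST (rGST) as the control protein, both at 50 nM, with 3 libraries per treatment. The RNAseq was 1 part of the study's work on SLURP1 and tumor dormancy. By its methods, the spheroids were harvested after several days of treatment. The labels do not say whether the libraries came from separate cultures, so the p-values describe the spread between these libraries, which may be technical. Expression was deposited as TPM, which corrects for transcript length and sums to the same total in every library, so levels can be compared between genes but read depth is unknown and no counting error can be given.

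Complement is a cascade of secreted proteases and binding proteins that marks surfaces for removal. In the classical pathway, the protease C1r activates C1s, which cleaves C4 and C2. In the alternative pathway, factor D cleaves factor B on C3b, and both routes lead to the cleavage of C3. Host cells hold the cascade in check with the C1 inhibitor (Serping1) and with membrane proteins such as CD55 and CD46. The liver makes most plasma complement, but fibroblasts, macrophages and many tumor cells also make it, and interferon-γ and IL-6 are known inducers of several of its genes.

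The D2A1 spheroids expressed the classical pathway proteases and C3 at high levels, Cfb and C4b at low levels, and the 4 other genes at or near 0. With rSLURP1, C1s1 and C1ra fell by 1.75 and 1.70 on the log2 scale, Cfb fell by 1.61 and C3 fell by 0.70. Summed over the 9 genes, TPM was 817, 783 and 820.2 in the rGST libraries and 260.2, 279.5 and 281 in the rSLURP1 libraries, a ratio of means of 2.95 (exact permutation test, two-sided p = 0.1, the smallest that 3 libraries against 3 can give). In bulk RNA, fewer cells of a type and less RNA per cell cannot be told apart. C1s1 and C1ra together made up 84.8% to 86.7% of this sum with rGST and 73.2% to 76.6% with rSLURP1.

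Of the 9 genes, 5 had 3 or more libraries at a TPM of 1 or more and were tested, namely C3, C4b, Cfb, C1s1 and C1ra, and Cfd, Serping1, Cd55 and Cd46 did not. All 5 were lower with rSLURP1 by limma on log2(TPM + 1), with a Benjamini-Hochberg adjusted p no higher than 0.05, against 58.5% of the 12301 tested genes, and 0 were higher, against 8.66%. At a fold change of at least 2, 3 were lower (C1s1, C1ra and Cfb), against 7.06% of all tested genes, and 0 were higher, against 1.15%. The median log2 fold change of the 5 was -1.61, and the median over all tested genes was -0.33. C4b reached a TPM of 1 only in the rGST libraries and so entered the test through the group in which it was higher. With median-ratio scaling of the libraries, which centers the changes of all genes on 0, the calls over all genes moved from 7200 lower and 1065 higher to 3094 lower and 3198 higher, and those of the 9 genes to 4 lower and 0 higher. When any 1 of the 6 libraries was left out, 4 were called lower, without C4b.

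**Figure D1:**
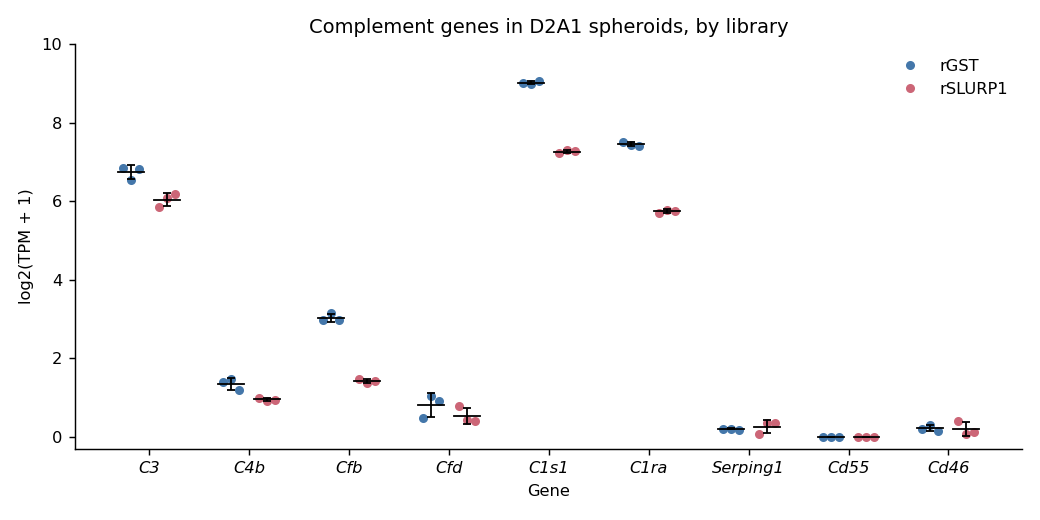
Level of each of the 9 complement genes, as log2(TPM + 1), in the 3 rGST (blue) and 3 rSLURP1 (red) libraries, with the mean (line) and SD (bar). The treatments are separated for C3, C4b, Cfb, C1s1 and C1ra and overlap for Cfd, Serping1 and Cd46, and Cd55 is at 0 throughout.

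C1s1 (ENSMUSG00000038521.17; GRCm38 chromosome 6, 124530345 to 124542359, minus strand) encodes C1s, the protease of the C1 complex that cleaves C4 and C2. Its TPM was 513, 509 and 529 in the rGST libraries and 149, 156 and 153 in the rSLURP1 libraries. The groups were far apart, with an SD of 10.5 around a mean of 517 and of 3.66 around a mean of 152 (n = 3 each), a ratio of 3.39. Its rank by TPM was 237 to 243 among all genes of the table with rGST and 763 to 780 with rSLURP1. On the log2 scale C1s1 changed by -1.75 (limma, adjusted p = 1.34e-07, standard error 0.036). The median tested gene taken off, this was -1.43, and 1.93% of the tested genes had a lower log2 fold change.

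C1ra (ENSMUSG00000055172.10; chromosome 6, 124512405 to 124523443, plus strand) encodes C1r, which activates C1s. It had a TPM of 180.3, 170.0 and 169.8 with rGST and 50.7, 54.2 and 52.8 with rSLURP1. Every rSLURP1 library lay below every rGST library, and the means were 173 ± 5.98 and 52.6 ± 1.76 (SD, n = 3 each), a ratio of 3.30. On the log2 scale C1ra changed by -1.70 (limma, adjusted p = 3.07e-07, standard error 0.045), and by -1.38 with the median tested gene taken off. The TPM of C1s1 was 2.85, 2.99 and 3.11 times that of C1ra in the rGST libraries and 2.93, 2.87 and 2.90 times in the rSLURP1 libraries. These ratios overlapped between treatments (exact permutation test, two-sided p = 0.4), while both levels fell.

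C1s1 and C1ra lie within 1 gene cluster with their paralogs C1s2 and C1rb and the related C1rl, and all of these were lower. C1s2 had a TPM of 29.1, 30.5 and 30.5 with rGST and 8.98, 9.62 and 9.53 with rSLURP1 (limma, adjusted p = 1.53e-06, log2 fold change -1.58). C1rb fell from 12.1 ± 1.29 to 4.21 ± 0.647 TPM (SD, n = 3 each) and C1rl from 18.6 ± 1.07 to 8.47 ± 1.26, with log2 fold changes of -1.33 and -1.06 (adjusted p = 6.88e-05 and 1.03e-04 in limma). The paralogs are alike enough for reads to be split uncertainly between them. Of the different 31-base words in the annotated transcripts of C1s2, 40.4% also occurred in those of C1s1, and for C1rb and C1ra the share was 70.0%. Added together, C1s1 and C1s2 went from 547 ± 10.8 TPM in the rGST group to 162 ± 3.99 in the rSLURP1 group (SD, n = 3 each; ratio 3.38), and C1ra and C1rb from 185 ± 4.70 to 56.8 ± 2.04 (ratio 3.26). Neither sum overlapped between treatments (p = 0.1 by the exact permutation test, two-sided).

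No change of that size was seen in the other tested genes near this cluster. From 100 kb before C1ra to 100 kb past C1s2 the table held 20 genes, of which 12 were tested, and the 5 that were lower by at least 2-fold were C1ra, C1rb, C1rl, C1s1 and C1s2. Pex5 and Emg1 were lower by less than 2-fold (log2 fold changes -0.47 and -0.28, adjusted p = 1.30e-04 and 7.11e-04 in limma), which is close to the median of all tested genes. Clstn3, Lpcat3, Phb2, Gm23547 and Ptpn6 did not pass the test (log2 fold changes of -0.24, -0.16, -0.028, 0.52 and -0.12). The changes of Clstn3 (0.31 to 1.62 TPM) and Gm23547 (0.32 to 13.3 TPM) were poorly measured, with standard errors of 0.28 and 0.85. An annotated antisense RNA that starts inside C1s1 had a mean TPM of 1.17 with rGST and 0.53 with rSLURP1. Whether strand was used in counting is not stated in the sources used here, so its reads and those of C1s1 cannot be told apart.

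**Figure D2:**
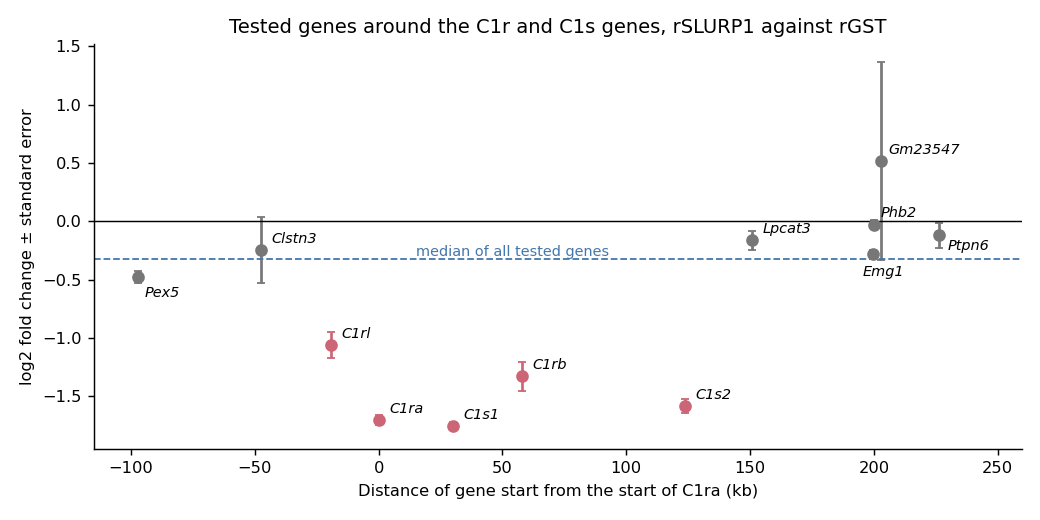
Log2 fold change (± standard error, limma) of the 12 tested genes around the C1r and C1s genes, by the distance in kb of each gene's start from that of C1ra. The 5 genes of the C1r and C1s family (red) lie between -1.75 and -1.06, and the 7 others (gray) between -0.47 and 0.52, with the median of all tested genes (dashed) at -0.33.

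Promoter sequence is shown for this cluster because its genes moved together. RefSeq (GRCm38.p6) gave a window from 250 bases before to 50 after the start for 6 of the 9 genes (C3, Cfd, C1s1, C1ra, Cd55 and Cd46). They were searched on both strands for letters of the GAS element (TTCNNNGAA), the IRF core (GAAANNGAA), C/EBP (TTNNGNAA) and the NF-kB decamer, where N is any base. The GAS letters were found in 8.30% of all 32851 mouse windows, the IRF core in 8.56%, C/EBP in 40.7% and the NF-kB decamer in 4.51%. C1ra and its paralog C1rb held the same 25-base block with a C/EBP match and a GAS match, both in capitals.
C1ra, chr6:124512637-124512661, plus strand: TTATGCAAatgcttcaTTCCCTGAA
C1rb, chr6:124570295-124570319, plus strand: TTATGCAAatgcttcaTTCCCTGAA
The GAS match lay 119 to 111 bases before the RefSeq start of C1rb and within the first 50 bases after that of C1ra. The windows of this pair were 92.7% identical over 150 aligned positions. For C1s1 (its first window) and C1s2 the identity was 69.2% over 39 aligned positions. No GAS, IRF or NF-kB letters were found in the windows of C1s1, C1s2 or C1rl, so the block was not common to the cluster. The windows of C1s2 and C1rl each held 1 C/EBP match. The window of Cd46 held 1 IRF match, and those of Cfd and Cd55 held no match of any kind. The window of C1ra held 3 C/EBP matches in all, of which the block shows 1. RefSeq gave C1s1 2 windows for different starts. The 250 bases before the start of the first held 2 C/EBP matches, shown in capitals, and the second window, not printed, held 1.
C1s1, chr6:124542360-124542609, minus strand: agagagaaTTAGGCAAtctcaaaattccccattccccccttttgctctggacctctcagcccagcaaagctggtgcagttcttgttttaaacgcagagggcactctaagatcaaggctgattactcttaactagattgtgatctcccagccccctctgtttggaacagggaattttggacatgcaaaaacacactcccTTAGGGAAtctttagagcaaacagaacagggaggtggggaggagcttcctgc
A match is a description of letters in these windows only, and binding was not measured.

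C3 (ENSMUSG00000024164.15; chromosome 17, 57203970 to 57228136, minus strand) encodes the component on which all complement pathways converge. Its TPM was 115, 92.8 and 112 with rGST and 57.1, 66.4 and 72.1 with rSLURP1. The groups did not overlap, but the gap between them was smaller than for the C1 proteases, with means of 107 ± 12.1 and 65.2 ± 7.57 (SD, n = 3 each), a ratio of 1.63. C3 changed by -0.70 on the log2 scale (limma, adjusted p = 7.94e-04, standard error 0.107). The median tested gene taken off, this was -0.38, and 17.2% of the tested genes had a lower one. Once corrected for the length and GC content of transcripts, the change was -0.22 (adjusted p = 0.122 in limma), so the call for C3 was lost there. The 250 bases before the start of C3 held 3 C/EBP matches, between 70 and 38 bases before it and shown in capitals, and no GAS, IRF or NF-kB letters.
C3, chr17:57228137-57228386, minus strand: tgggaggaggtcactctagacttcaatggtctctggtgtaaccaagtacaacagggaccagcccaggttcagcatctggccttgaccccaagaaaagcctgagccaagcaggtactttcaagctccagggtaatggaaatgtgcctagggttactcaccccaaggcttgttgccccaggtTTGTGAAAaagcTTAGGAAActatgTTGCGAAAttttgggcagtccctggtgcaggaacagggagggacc

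C4b (ENSMUSG00000073418.4; chromosome 17, 34728380 to 34743882, minus strand) encodes C4, the substrate of C1s. Its TPM was low, at 1.62, 1.80 and 1.28 with rGST and 0.99, 0.90 and 0.93 with rSLURP1. The groups did not overlap, and C4b changed by -0.40 on the log2 scale (limma, adjusted p = 0.0433, standard error 0.147), which is -0.073 from the median of all tested genes. Without rSLURP1 replicate 1, 2 or 3 the adjusted p was 0.0772, 0.0889 and 0.0943, and without any 1 of the rGST libraries C4b no longer passed the filter. With median-ratio scaling the log2 fold change was -0.20 (adjusted p = 0.268 in limma), and with the length and GC correction it turned to 0.10. The paralog C4a shared 43.3% of its 31-base words with C4b and had 2.43, 4.09 and 1.79 TPM with rGST and 2.76, 2.87 and 2.49 with rSLURP1. The sum of both genes overlapped between treatments (4.34 ± 1.43 and 3.65 ± 0.197 TPM, SD, n = 3 each; exact permutation test, two-sided p = 0.7).

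Cfb (ENSMUSG00000090231.10; chromosome 17, 34856374 to 34862518, minus strand) encodes factor B, the protease of the alternative pathway C3 convertase. It had a TPM of 6.85, 7.89 and 6.93 with rGST and 1.80, 1.58 and 1.68 with rSLURP1. The lowest rGST library was well above the highest rSLURP1 library, and the means were 7.22 ± 0.579 and 1.69 ± 0.110 (SD, n = 3 each), a ratio of 4.28. On the log2 scale Cfb changed by -1.61 (limma, adjusted p = 1.50e-05, standard error 0.108), and by -1.29 with the median tested gene taken off. On the log2(TPM + 1) scale the change of a gene this low is understated, and with a pseudocount of 0.1 it was -2.03. Cfb amounted to 5.96%, 8.51% and 6.18% of the TPM of C3 in the rGST libraries and 3.15%, 2.38% and 2.33% in the rSLURP1 libraries. These shares did not overlap between treatments (exact permutation test, two-sided p = 0.1). C2, its neighbor and the factor B counterpart of the classical pathway, was at 0 to 0.63 TPM over the 6 libraries. Of the 15 tested genes from 100 kb before C4b to 100 kb past Cfb, only Cfb was lower by at least 2-fold, and the next lowest was Zbtb12 at -0.45.

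The remaining members were hardly expressed. Cfd (chromosome 10, 79890853 to 79892655, plus strand) encodes factor D, also called adipsin for its high level in fat cells. Its TPM of 0.39, 1.07 and 0.90 with rGST overlapped the 0.72, 0.34 and 0.33 with rSLURP1, and it reached 1 in 1 library. Serping1 (chromosome 2, 84765387 to 84775444, minus strand) encodes the C1 inhibitor, which inactivates C1r and C1s. It had 0.16, 0.16 and 0.14 TPM with rGST and 0.05, 0.29 and 0.27 with rSLURP1, against 509 to 529 TPM of C1s1 in the rGST libraries. Cd46 (chromosome 1, 195036826 to 195092249, minus strand), a membrane cofactor whose expression in mice is largely limited to the testis, had 0.06 to 0.32 TPM. Cd55 (chromosome 1, 130439027 to 130462744, minus strand), which dissociates the C3 convertases, was listed at 0 in all 6 libraries, as was its paralog Cd55b. Fitted without a filter, Cfd, Serping1 and Cd46 had log2 fold changes of -0.28, 0.055 and -0.018 (adjusted p = 0.354, 0.670 and 0.894 in limma over 23334 genes). None of these passed the test, which does not show that they were equal between treatments.

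Beyond these 9 genes, 50 further complement genes were counted, of which 13 passed the filter, 8 were lower, 0 were higher and 5 did not pass the test. The share called lower was close to the 58.5% of all tested genes. At a fold change of at least 2, 4 were lower, against 7.06% of all tested genes, and 0 were higher, against 1.15%. These 4 were Masp1 and, from the C1r and C1s cluster, C1s2, C1rb and C1rl. The median log2 fold change of the 13 was -0.62. Masp1, the lectin pathway protease related to C1r and C1s, was among the highest, with a TPM of 351, 358 and 337 with rGST and 156, 159.9 and 158 with rSLURP1. It fell by 1.13 on the log2 scale (limma, adjusted p = 5.89e-07). Besides Masp1, C1s2, C1rb and C1rl, the genes lower at an adjusted p of 0.05 or less were Clu, Cfp, C8g and Cd93, with log2 fold changes of -0.79, -0.76, -0.62 and -0.47. Clu encodes clusterin, an inhibitor of the membrane attack complex, and Cfp encodes properdin, which stabilizes the alternative pathway convertase. Without rGST replicate 1 and without rSLURP1 replicate 1 or 2, C8g was no longer called (log2 fold changes -0.48, -0.47 and -0.61), nor was it without a filter, with the replicate block, with either scaling or with the length and GC correction. With median-ratio scaling and quantile normalization Cfp was at -0.49 and -0.37 and Cd93 at -0.21 and -0.084, none of them called, and with the length and GC correction Cd93 was at -0.022. The 5 tested genes that did not pass were C4a, Cd59a, Cr1l, Itgb2 and C1qbp, between -0.099 and 0.15. All 5 lay above the median of all tested genes. With median-ratio scaling Cr1l, Itgb2 and C1qbp were called higher (0.25, 0.44 and 0.29), and 5 of the 13 tested genes were called lower. In that setting all 12301 tested genes were divided into 3094 lower and 3198 higher.

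Cr1l encodes Crry, the rodent membrane regulator that limits C3 and C4 deposition. Its TPM was 50.5, 45.4 and 44.9 with rGST and 41.9, 46.0 and 43.3 with rSLURP1, which overlap. Cd59a, which blocks the membrane attack complex, had 5.76 to 6.08 TPM with rGST and 4.78 to 6.35 with rSLURP1. The RNA of the listed membrane regulators was thus mainly that of Cr1l and Cd59a, with Cd55 at 0 and Cd46 near it. Protein and regulation at the membrane were not measured. The C1q chains C1qa, C1qb and C1qc, which carry C1r and C1s in the C1 complex, were at 0 to 0.26 TPM, and the liver components C6, C8b, Cfi, C4bp and Vtn were listed at 0 throughout.

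**Figure D3:**
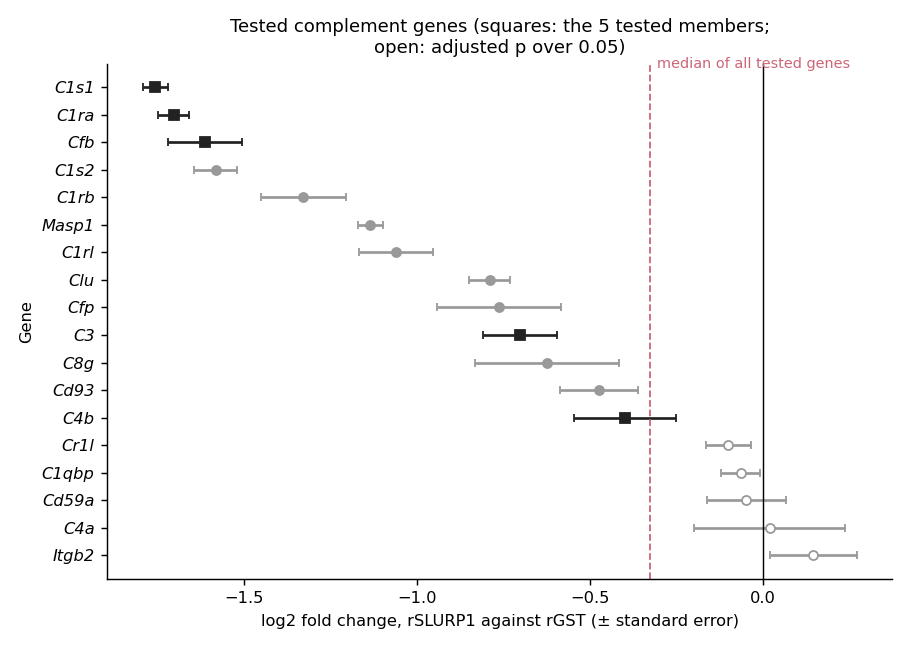
Log2 fold change (± standard error, limma) of the 5 tested members (squares) and the 13 other tested complement genes (circles), with filled symbols for an adjusted p of 0.05 or less. Proteases of the C1r, C1s and Masp1 group and Cfb lie at -1.06 or lower, and Cr1l, C1qbp, Cd59a, C4a and Itgb2 lie near 0, above the median of all tested genes (dashed, -0.33).

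Genes that act upstream of complement transcription were counted from a list of 17 receptors and transcription factors. Of these, 16 were tested, 7 were lower and 2 higher, a smaller share of lower genes than the 58.5% over all tested genes. With median-ratio scaling 5 were lower and 8 higher, where all genes were divided into 3094 lower and 3198 higher. Irf1, a transcription factor induced by interferon-γ, fell from 115 ± 5.96 to 33.0 ± 1.54 TPM (SD, n = 3 each; log2 fold change -1.77, adjusted p = 5.89e-07 in limma). Il6ra, the IL-6 receptor, fell by 1.53 on the log2 scale (adjusted p = 4.57e-06 in limma). Cebpb, the C/EBP factor of acute inflammation, was higher (369, 383 and 406 TPM with rGST and 486, 525 and 525 with rSLURP1; log2 fold change 0.41, adjusted p = 2.68e-04 in limma). Il6st and Ifngr1 were also lower (log2 fold changes -0.71 and -0.70, adjusted p = 1.49e-05 and 1.01e-04 in limma). Rela and Relb were lower by less (-0.39 and -0.41), and Tnfrsf1a was higher (0.17, adjusted p = 0.0218 in limma). The 7 that did not pass were Stat3, Cebpd, Nfkb1, Nfkbiz, Osmr, Ifngr2 and Il1r1, with log2 fold changes from -0.29 to 0.17, and Cebpa was listed at 0. Whether any of these genes had a part in the change of the complement genes was not tested.

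The labelled cell type and other possible sources of complement were checked with marker genes. Of 8 epithelial markers, Krt18 was at 191 to 199 TPM in all 6 libraries, Krt8 was at 1.40 to 1.66 with rGST and 0.51 to 0.81 with rSLURP1, Cdh1 was at 0.07 or less, and Epcam, Krt5 and Krt14 were listed at 0. Krt7 was at 0.54 to 1.37 TPM with rGST and 0 to 0.77 with rSLURP1, and Cldn4 was at 0.13 or less. Apart from Krt18, the listed epithelial markers were therefore low, near 0 or absent. Of 9 fibroblast markers, 5 were tested (Pdgfra, Pdgfrb, Col1a1, Dcn and Lum). All 5 were lower by at least 2-fold, against 7.06% of all tested genes, with log2 fold changes from -6.55 to -1.85. Col1a1 reached a TPM of 1 only in the rGST libraries (7.48 to 9.66, against 0.26 to 0.42 with rSLURP1), so it too was tested through the group in which it was higher. The summed level of the fibroblast list was 1008 to 1139 TPM with rGST and 75.2 to 85.2 with rSLURP1. Of the untested markers, Col1a2 was at 0.24 to 0.49 TPM with rGST and 0 to 0.01 with rSLURP1. Col3a1 was at 0.27 to 0.69 and 0 to 0.15. Fap and Thy1 were at 0 to 0.77 and overlapped between treatments. The part of the fibroblast markers in the fall of C1s1, C1ra, Cfb and C3 was not tested. Of 12 macrophage and leukocyte markers, Ptprc, Adgre1, Itgam and Tyrobp were at 0.01 TPM or less, and Cd14 and Cd68 were higher (limma, adjusted p = 1.44e-05 and 1.90e-04; means of 15.1 and 41.1 TPM for Cd14 and 3.77 and 9.60 for Cd68). The summed level of that list, nearly all of it Cd14 and Cd68, was 17.4 to 20.8 TPM with rGST and 48.3 to 55.9 with rSLURP1. Of 8 adipocyte markers, 3 were tested. Fabp4 and Pparg were higher (log2 fold changes 2.52 and 0.56), and Plin1 was not called (0.50, adjusted p = 0.171 in limma). Adipoq was at 0.15 or less, and Lep and Lpl were at 0. The sum was 10.2 to 14.7 TPM with rGST and 46.0 to 51.8 with rSLURP1, in which Fabp4 had means of 5.74 and 37.2 TPM. The 8 hepatocyte markers summed to less than 1 TPM in every library, and of 7 endothelial markers only Egfl7 was tested (log2 fold change -0.20, adjusted p = 0.480 in limma), with sums of 9.40 to 15.7 and 8.50 to 15.1 TPM.

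The direction of C1s1, C1ra and Cfb was the same, at an adjusted p of 0.05 or less, in each of the 16 alternatives. Over these, the log2 fold change ranged from -1.77 to -1.39 for C1s1, from -1.72 to -1.33 for C1ra and from -2.03 to -1.24 for Cfb. C3 ranged from -0.80 to -0.22. C4b did not pass the filter when a TPM of 1 was required in all 6 libraries or when an rGST library was left out. Over the other alternatives C4b ranged from -0.67 to 0.10.

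**Figure D4:**
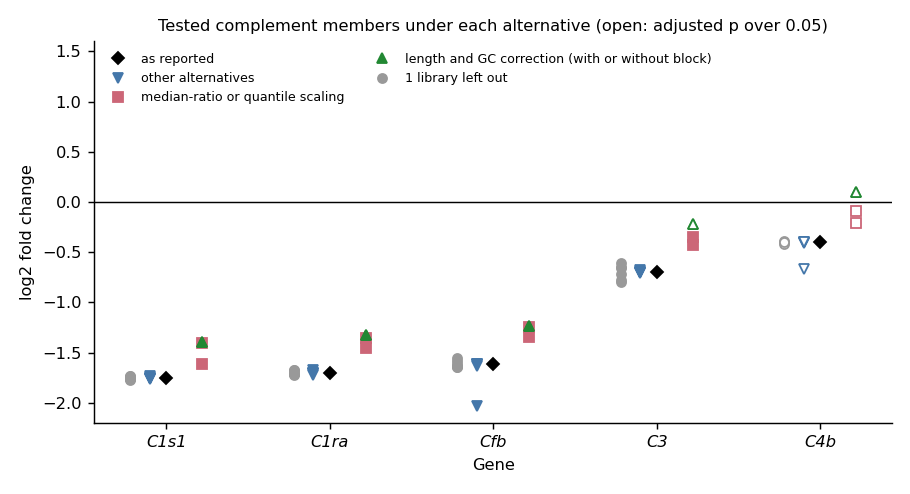
Log2 fold change of the 5 tested members as reported and under each alternative, with open symbols for an adjusted p over 0.05. C1s1, C1ra and Cfb stay at -1.24 or lower, C3 loses its call with the length and GC correction (-0.22), and C4b keeps its call only with eBayes without trend and reaches 0.10.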

How the data were processed

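The 6 RNAseq libraries of D2A1 spheroids were grouped by the sample titles (3 rSLURP1, 3 rGST). The authors deposited TPM for each library, without pooling, made by Cutadapt trimming, STAR alignment to mm10 and RSEM estimation on GENCODE M12. The submitters' processing notes give cutadapt 1.18, STAR 2.5.2b and RSEM 1.3.3. A TruSeq mRNA kit is named in the labels and Smart-seq2 in the paper's methods. Read depth is unknown, and 12390 to 12449 genes (rGST) and 11906 to 11981 genes (rSLURP1) reached a TPM of 1.

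With limma 3.58.1 in R 4.3.3, 12301 genes (3 or more libraries at a TPM of 1 or more) were tested on log2(TPM + 1), with eBayes trend, no block and Benjamini-Hochberg adjustment over all of them. Thresholds were an adjusted p of 0.05 and, where said, a fold change of 2. The members, lists and motifs were chosen with earlier results of these data known. The neighboring genes, paralog sums and ratios were chosen after their values were seen. The rule for naming took all members and, from the other lists, genes called with a 2-fold change, paralogs of members and tested markers; further genes named were chosen after their values were seen. Positions and transcripts came from GENCODE M21 on the same build. The scripts were tested on simulated data, with Python 3.11.15, pandas 2.3.3, Biopython 1.88 and matplotlib 3.10.9. Alternatives were median-ratio scaling, quantile normalization, a pseudocount of 0.1, a TPM of 1 required in all 6 libraries or in none, leaving out mitochondrial genes, eBayes without trend, a replicate block, a loess adjustment (span 0.3) for length and GC content, both of these together, and leaving out each library. A result for 1 gene of the upstream list is not reported here.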

Additional observations from a re-analysis of the deposited data

How the results depend on the processing

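Of the 9 members, 5 were called lower, 3 of them at 2-fold, and 0 higher. Adjusting for length and GC content, alone or with the replicate block, left 3 called lower: C3 lost its call and C4b reversed to 0.10. The cause was not tested. Each fit that left out 1 library called 4. The replicate block alone also called 4 (C4b -0.40, adjusted p = 0.0762 in limma). Deviations of same-numbered libraries correlated at -0.056, -0.034 and -0.061, so the numbers were not taken as pairs. Of the 50 other complement genes, 13 were tested as reported, of which 8 were called lower (7 to 8 with 1 library left out) and 0 higher. Under median-ratio scaling 5 were lower and 3 higher, under quantile normalization 5 and 4, under the length and GC adjustment 3 were higher, block or not, and without a filter 1 (C5ar2). Under median-ratio scaling Cr1l reversed to 0.25 and C1qbp to 0.29. Quantile normalization reversed Cr1l to 0.23, C1qbp to 0.15 and Cd59a to 0.34. The length and GC adjustment reversed Cr1l to 0.29 and C1qbp to 0.25, block or not. The median of all genes was -0.33 as deposited and between -0.001 and 0.03 under these 3 settings. Genes below 1 TPM are limited by a depth that is unknown.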

Other observations

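Acute phase genes, which share inducers with complement, did not move in 1 direction. Of 17 listed, 8 were tested, 6 were lower and 2 higher, against 58.5% lower and 8.66% higher over all tested genes. Lcn2, an iron-siderophore binding protein, had a TPM of 1035, 941 and 1244 with rGST and 1531, 1660.0 and 1553 with rSLURP1 (log2 fold change 0.57, adjusted p = 0.00128 in limma), and Hp, haptoglobin, rose by 0.76 (adjusted p = 5.49e-04). Lbp, the lipopolysaccharide binding protein, fell from 57.9, 60.1 and 51.2 TPM to 1.22, 1.3 and 1.63, a log2 fold change of -4.59 (adjusted p = 1.54e-07 in limma). Saa1, Saa2, Saa3, Ptx3 and Cp were lower, with log2 fold changes of -1.86, -1.48, -0.62, -0.56 and -0.48. With median-ratio scaling, 4 of the 8 tested were lower and 2 higher, where all 12301 tested genes were divided into 3094 lower and 3198 higher.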
